A study of Homo sapiens with 9 samples.

Results

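The nucleosome remodelling and deacetylase complex, NuRD, is a chromatin complex that joins a nucleosome remodelling motor to the histone deacetylases HDAC1 and HDAC2. Described here are the transcripts of 10 of its subunits, CHD3, CHD4, MTA1, MTA2, MTA3, MBD2, MBD3, GATAD2A, GATAD2B and RBBP7, in HEK293T cells that received an siRNA against SUDS3, an siRNA against PHF12 or a negative control siRNA. The members were a given list of symbols, matched through GENCODE 29 to 10 of the 58735 genes in the deposited tables, and no measured value entered the rule. All 10 passed the filter on low counts, in which 18088 genes were tested.

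HEK293T cells are a transformed line from human embryonic kidney that carries the large T antigen of SV40. There were 3 groups of 3 libraries. In the SUDS3 knockdown group, cells had 10 nM of 1 Silencer Select siRNA against SUDS3; in the PHF12 knockdown group, 10 nM of 1 such siRNA against PHF12; in the control group, 10 nM of the Silencer Select Negative Control No. 2. All cells were transfected with Lipofectamine RNAiMAX for 36 h, and poly-A RNA was sequenced. Because 1 siRNA was used per target, effects of the lost target and effects of that siRNA sequence on other transcripts cannot be told apart, and the labels do not say that the 3 libraries of a group came from separate cultures.

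SUDS3 and PHF12 are subunits of SIN3 complexes, another class of complexes built on HDAC1 and HDAC2. NuRD is made of exchangeable paralogs. CHD3 and CHD4 are alternative ATP-dependent motors; MTA1, MTA2 and MTA3 are scaffolds that hold and activate the deacetylases; MBD2 and MBD3 are alternative methyl-CpG-binding-domain proteins, of which MBD2 binds methylated DNA strongly and mammalian MBD3 does not; GATAD2A and GATAD2B tie the MBD protein to the motor; RBBP7, like its paralog RBBP4, binds histones. RBBP4 and RBBP7 also belong to SIN3 complexes, so a change in RBBP7 is not one of NuRD alone.

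With the SUDS3 siRNA 7 of the 10 transcripts fell, led by MBD3, GATAD2B and CHD3, where 26.4% of the genes of at least their level fell, and none rose in edgeR (0 at an unadjusted p under 0.05, and 0 in DESeq2). With the PHF12 siRNA 4 of 10 rose (GATAD2B, MTA3, RBBP7 and MTA2) and 1, GATAD2A, fell, where 26.5% of those 6702 genes rose and 26.6% fell. MTA3, GATAD2B and RBBP7 passed in both knockdowns in opposite directions, although the fall of MTA3 with the SUDS3 siRNA did not pass without any 1 of 3 libraries named below. The changes were moderate: the largest, that of MBD3 with the SUDS3 siRNA, left 63.0% of the control level.

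The promoters of 4 of these genes are printed because their transcripts had the largest response in the SUDS3 knockdown (MBD3) or moved in opposite directions in the 2 knockdowns (GATAD2B, RBBP7 and MTA3). Each runs 5′ to 3′ on the gene's strand, from 250 bases before to 50 after an annotated start, in RefSeq's GRCh38.p14, and capitals mark CCAAT or its reverse complement ATTGG, a common promoter element.
GATAD2B promoter, chr1:153922923-153923222, minus strand: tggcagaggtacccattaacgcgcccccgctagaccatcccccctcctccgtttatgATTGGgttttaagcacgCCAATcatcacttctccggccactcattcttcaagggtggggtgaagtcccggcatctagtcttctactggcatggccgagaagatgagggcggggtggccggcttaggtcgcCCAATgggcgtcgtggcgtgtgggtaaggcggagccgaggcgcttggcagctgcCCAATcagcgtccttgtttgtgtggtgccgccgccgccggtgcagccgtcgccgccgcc
MBD3 promoter, chr19:1592816-1593115, minus strand: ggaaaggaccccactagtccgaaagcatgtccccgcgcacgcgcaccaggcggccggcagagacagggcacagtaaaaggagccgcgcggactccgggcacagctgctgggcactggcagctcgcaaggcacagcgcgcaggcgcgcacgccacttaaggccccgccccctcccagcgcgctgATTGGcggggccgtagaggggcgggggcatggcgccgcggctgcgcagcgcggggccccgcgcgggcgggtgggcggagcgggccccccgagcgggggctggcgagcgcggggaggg
RBBP7 promoter, first of 2 annotated, chrX:16870313-16870612, minus strand: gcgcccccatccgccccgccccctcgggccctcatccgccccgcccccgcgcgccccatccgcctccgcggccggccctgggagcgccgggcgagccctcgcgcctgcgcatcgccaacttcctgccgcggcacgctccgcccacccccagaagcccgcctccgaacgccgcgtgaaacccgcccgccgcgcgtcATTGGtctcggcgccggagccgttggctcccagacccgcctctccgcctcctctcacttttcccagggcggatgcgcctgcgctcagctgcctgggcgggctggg
MTA3 promoter, first of 2 annotated, chr2:42493860-42494159, plus strand: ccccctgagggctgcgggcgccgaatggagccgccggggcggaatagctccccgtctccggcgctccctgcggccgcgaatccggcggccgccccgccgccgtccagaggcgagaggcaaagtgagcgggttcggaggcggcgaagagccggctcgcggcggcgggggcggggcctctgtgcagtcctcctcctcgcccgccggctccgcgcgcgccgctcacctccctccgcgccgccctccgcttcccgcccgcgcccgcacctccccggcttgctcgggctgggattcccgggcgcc
GATAD2B holds 4 such matches, MBD3 and RBBP7 1 each in the windows shown, and MTA3 0. Searched on both strands, with overlapping matches of the 2 motifs counted once, CCAAT or ATTGG was in 34.6% of 35116 promoter windows of the same length, and 2 or more matches were in 10.6%. RefSeq windows were found for all 10 members, 14 in all, of which 5 held a match. CpG dinucleotides per window ran from 6 to 54 among the members, against a median of 14.0 over all windows. These matches are a description of the letters, not of factor binding.

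A second set of short sequences is printed because an earlier scan of these same fold changes had picked 2 hexamers in 3′ UTRs, TACATT for genes that fell with the SUDS3 siRNA and AATCAC for genes that fell with the PHF12 siRNA. An siRNA can lower transcripts other than its target through short matches to its own sequence. The sequences of these siRNAs are not in the sources used here, so whether either hexamer matches them was not checked. Windows of 30 bases around every match in the longest annotated 3′ UTR of the members (GENCODE 29, GRCh38) are given 5′ to 3′ with the hexamer in capitals.
MTA3 3′ UTR, chr2:42753481-42753510, plus strand: ccccactcccagTACATTtcagtgggagac
MBD2 3′ UTR, chr18:54154871-54154900, minus strand: aggggacacctgTACATTcttccatcatca
MBD2 3′ UTR, chr18:54154753-54154782, minus strand: cttcctctgattTACATTcaactctgatcc
MBD2 3′ UTR, chr18:54154213-54154242, minus strand: gaaaactagcatTACATTattaaacgattt
MBD2 3′ UTR, chr18:54153992-54154021, minus strand: gagtgtcacctgTACATTttattaccacta
GATAD2B 3′ UTR, chr1:153806621-153806650, minus strand: taaaaggaattgTACATTgtgtagaaaaaa
GATAD2A 3′ UTR, chr19:19505976-19506005, plus strand: ttttttttttttAATCACctcatgatgatg
TACATT was thus in MTA3 (1 match), MBD2 (4) and GATAD2B (1), which all fell with the SUDS3 siRNA. It was in neither MBD3, CHD3, CHD4 nor RBBP7, which fell with it too. AATCAC was in GATAD2A, the only member that fell with the PHF12 siRNA, and in no other member. Over 19133 genes, TACATT was in 36.2% and AATCAC in 27.7% of longest 3′ UTRs, whose median length was 1104 bases; those of MTA3, MBD2, GATAD2B and GATAD2A are 3548, 3723, 5452 and 3457 bases long. Since the hexamers were chosen on these fold changes, the matches are no independent evidence, and their part in the results was not tested.

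Library totals ran from 37962926 to 50946148 counts. Each siRNA lowered its own target: SUDS3 had 21.1, 22.3 and 22.9 CPM in SUDS3 knockdown libraries, 81.4, 80.1 and 81.5 CPM in PHF12 knockdown libraries and 107, 114 and 112 CPM in control libraries. PHF12 had 59.5, 62.0 and 62.9 CPM in SUDS3 knockdown libraries, 27.9, 24.5 and 28.3 CPM in PHF12 knockdown libraries and 50.3, 50.5 and 48.8 CPM in control libraries. The PHF12 siRNA also lowered SUDS3, to 72.9% of control (log2 fold change -0.46, edgeR adjusted p = 6.83e-10), and PHF12 rose with the SUDS3 siRNA (0.30, adjusted p = 7.19e-05), so each knockdown changed both transcripts. CPM, the counts scaled to a common library size with TMM factors, give a transcript's share of the RNA and not its amount per cell; fewer cells of a kind and less RNA per cell cannot be told apart in such bulk samples. The 7 HEK293 markers looked at (VIM, NEFL, NEFM, KRT8, KRT18, PAX2 and LIN28B) were all detected, with summed levels of 1184 to 1204 unscaled CPM in SUDS3 knockdown, 1253 to 1302 in PHF12 knockdown and 1256 to 1279 in control libraries. Of 6 markers of other cell types, PTPRC, ESR1 and MLANA were under 0.1 CPM on average, 2 of them at 0 in all 9 libraries. The 6 summed to 21.9 to 25.1 CPM in SUDS3 knockdown, 18.6 to 20.9 in PHF12 knockdown and 13.6 to 14.7 in control libraries, and COL1A1, a collagen gene of fibroblasts that made up most of this, rose in both (log2 fold change 0.82 and 0.55 with the SUDS3 and the PHF12 siRNA, edgeR adjusted p = 5.17e-09 and 9.46e-06). COL1A1 had 19.7 to 22.4 CPM in SUDS3 knockdown, 15.9 to 18.1 CPM in PHF12 knockdown and 11.2 to 12.1 CPM in control libraries. Within the HEK293 list, KRT8, a keratin of simple epithelia, fell with the SUDS3 siRNA (-0.61, edgeR adjusted p = 2.93e-07) and rose with the PHF12 siRNA (0.83, adjusted p = 1.33e-10), and LIN28B, an RNA-binding repressor of let-7 maturation, fell with the SUDS3 siRNA (-0.49, adjusted p = 6.53e-11) and with the PHF12 siRNA (-0.81, adjusted p = 9.31e-17). In all, 1 of the 7 rose, 3 fell and 3 did not pass with the SUDS3 siRNA, where 19.6% of all tested genes rose and 19.2% fell. With the PHF12 siRNA 3 rose, 3 fell and 1 did not pass, where 14.8% of all tested genes rose and 17.1% fell. The neurofilament gene NEFM moved opposite to KRT8 (0.40 with the SUDS3 siRNA and -0.22 with the PHF12 siRNA, both passed), and VIM, a filament gene of mesenchymal cells, moved with KRT8 (-0.32 and 0.16, both passed). The listed genes of 1 filament type did not move together. With the PHF12 siRNA the neurofilament gene NEFL rose (0.32, edgeR adjusted p = 4.37e-06), against NEFM. The keratin gene KRT18 fell (-0.22, edgeR adjusted p = 0.000413), against KRT8. With the SUDS3 siRNA neither NEFL (0.06) nor KRT18 (-0.09) passed. The part of these differences in the members' results was not tested.

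**Figure D1:**
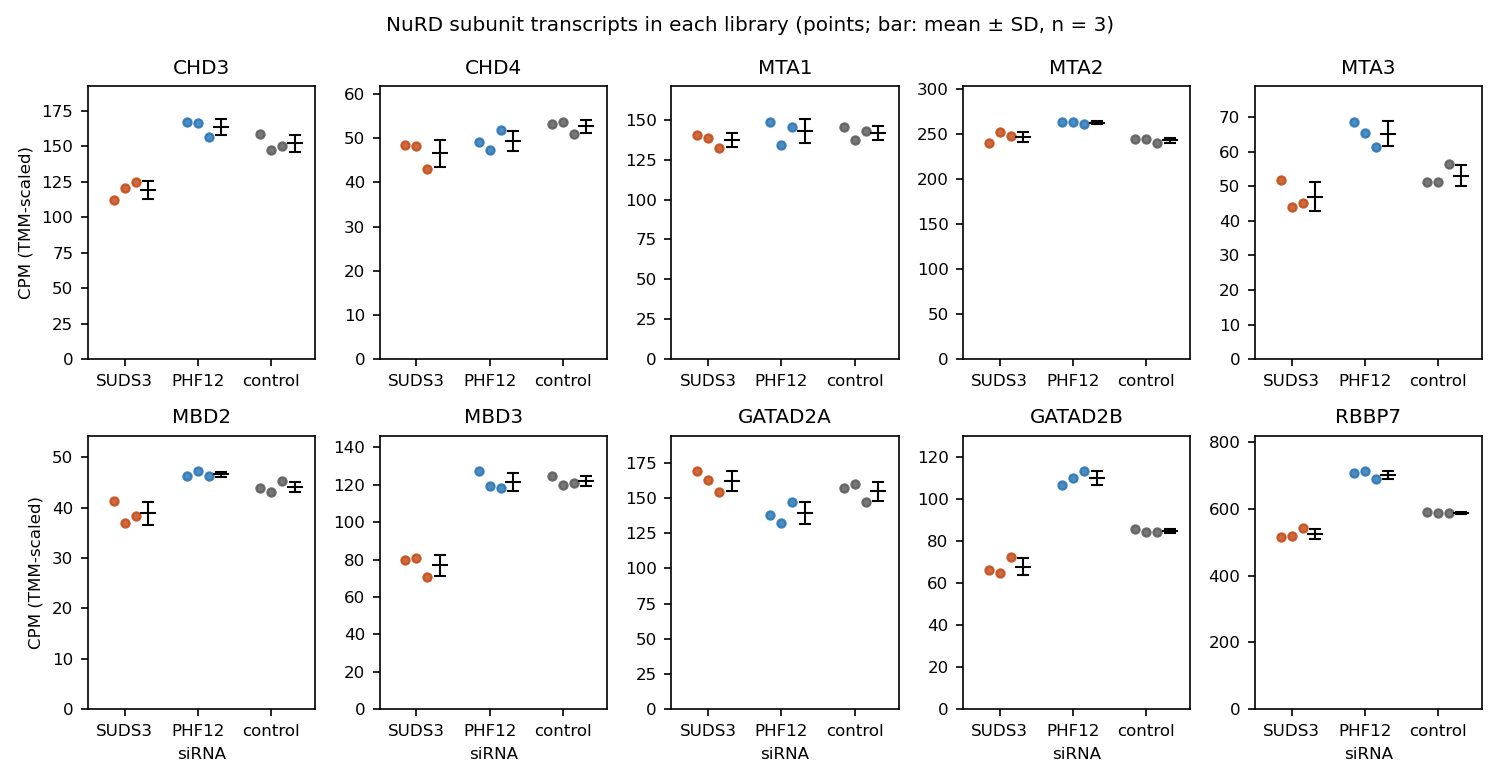
Level of each of the 10 NuRD subunit transcripts in TMM-scaled CPM (vertical axes, from 0) in each library, with SUDS3 knockdown, PHF12 knockdown and control from left to right; points are libraries and the black bar is the mean ± SD of 3. MBD3 is lowest in the SUDS3 knockdown, at 70.4 to 80.6 CPM, while GATAD2B and RBBP7 are lowest in the SUDS3 knockdown and highest in the PHF12 knockdown.

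The comparison of the SUDS3 knockdown with control asks which of these transcripts differ with the SUDS3 siRNA. Genes passed at an adjusted p under 0.05 in edgeR's quasi-likelihood test, with the Benjamini-Hochberg method over all genes tested. Of the 10 members 0 rose, 7 fell and 3 did not pass, where 19.6% of all tested genes rose and 19.2% fell. Well-expressed genes are called more often, so the members, all with an average log2 CPM above 5, are also set beside the 6702 genes of at least that level, of which 35.0% rose and 26.4% fell. Their median log2 fold change was -0.18, against -0.02 over all genes tested. The same question was put to the PHF12 siRNA. There 4 members rose, 1 fell and 5 did not pass, where 14.8% of all tested genes rose and 17.1% fell, and 26.5% and 26.6% of the well-expressed ones. The members' median was 0.09, against -0.00 over all genes tested. Both comparisons use the same 3 control libraries.

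CHD3, one of the motors, was lower with the SUDS3 siRNA. It had 113, 121 and 125 CPM in SUDS3 knockdown libraries, 168, 166 and 157 CPM in PHF12 knockdown libraries and 159, 148 and 151 CPM in control libraries. All 3 SUDS3 knockdown libraries lay below all 6 others, while PHF12 knockdown and control libraries overlapped. CHD3 (ENSG00000170004, GRCh38 chromosome 17, 7884806 to 7912760) averaged 119.6 ± 6.45 CPM in the SUDS3 knockdown and 152 ± 5.995 CPM in controls (SD, n = 3 each; log2 fold change -0.35, SE 0.04, adjusted p = 1.57e-08 in edgeR). Against control, the PHF12 knockdown gave a log2 fold change of 0.10 (adjusted p = 0.0556), which missed the threshold here and passed it in 13 of 21 other settings.

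CHD4, the other motor, showed a smaller difference. It had 48.5, 48.1 and 43.0 CPM in SUDS3 knockdown libraries, 49.1, 47.2 and 51.8 CPM in PHF12 knockdown libraries and 53.2, 53.7 and 51.0 CPM in control libraries. The SUDS3 knockdown libraries all lay below the controls, and the PHF12 knockdown libraries overlapped both groups. CHD4 (ENSG00000111642, chromosome 12, 6570082 to 6614524) fell with the SUDS3 siRNA (log2 fold change -0.18, SE 0.06, adjusted p = 0.0145 in edgeR), a call that ended when control replicate 2 was left out (-0.16, adjusted p = 0.0633). It ended too when replicate 3 of the SUDS3 knockdown was left out, at -0.12 (adjusted p = 0.135). With the PHF12 siRNA it did not pass (log2 fold change -0.09, 95% interval -0.21 to 0.02, adjusted p = 0.241). Of the 6673 bases of its longest coding transcript, 5846 are shared with other annotated genes, chiefly AC006064.6 on the same strand, which has 0 counts in every library; how reads in such shared bases were counted is not stated, and 827 bases are unshared.

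MTA1, the founding member of the MTA scaffold family, did not pass in any comparison. It had 141, 139 and 132 CPM in SUDS3 knockdown libraries, 149, 134 and 145 CPM in PHF12 knockdown libraries and 145, 137 and 143 CPM in control libraries, and the 3 groups overlapped. For MTA1 (ENSG00000182979, chromosome 14, 105419820 to 105470729) the log2 fold change was -0.05 with the SUDS3 siRNA (95% interval -0.13 to 0.03, edgeR adjusted p = 0.414) and 0.01 with the PHF12 siRNA (-0.07 to 0.09, adjusted p = 0.904).

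MTA2, the scaffold with the most counts of the family, passed with the PHF12 siRNA and not with the SUDS3 siRNA. It had 240.1, 252 and 247 CPM in SUDS3 knockdown libraries, 264, 263 and 261 CPM in PHF12 knockdown libraries and 245, 244 and 240.0 CPM in control libraries. The PHF12 knockdown libraries lay above all others, while SUDS3 knockdown and control libraries overlapped. The rise of MTA2 (ENSG00000149480, chromosome 11, 62593214 to 62601840) was small and even (log2 fold change 0.11, SE 0.03, adjusted p = 0.00552 in edgeR), and the SUDS3 siRNA gave 0.02 (adjusted p = 0.653).

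MTA3, a scaffold studied mainly in breast epithelium and B cells, moved in opposite directions. It had 51.8, 44.0 and 45.2 CPM in SUDS3 knockdown libraries, 68.7, 65.5 and 61.4 CPM in PHF12 knockdown libraries and 51.4, 51.4 and 56.5 CPM in control libraries. The PHF12 knockdown libraries lay above all others, and 1 SUDS3 knockdown library was within the control range. MTA3 (ENSG00000057935, chromosome 2, 42494569 to 42756947) rose with the PHF12 siRNA (log2 fold change 0.30, SE 0.06, adjusted p = 0.000158 in edgeR) and fell with the SUDS3 siRNA (log2 fold change -0.17, SE 0.06, adjusted p = 0.0227). The fall was lost without control replicate 3, at -0.13 (adjusted p = 0.148). Leaving out SUDS3 knockdown replicate 2 gave -0.12 (adjusted p = 0.191), and leaving out replicate 3 of that group gave -0.15 (adjusted p = 0.0994).

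MBD2, the subunit that directs NuRD to methylated DNA, had 41.3, 37.0 and 38.2 CPM in SUDS3 knockdown libraries, 46.2, 47.1 and 46.3 CPM in PHF12 knockdown libraries and 44.0, 43.1 and 45.2 CPM in control libraries. The SUDS3 knockdown libraries were the lowest 3 of the 9. MBD2 (ENSG00000134046, chromosome 18, 54151601 to 54224788) fell with the SUDS3 siRNA (log2 fold change -0.18, SE 0.06, adjusted p = 0.013 in edgeR), a call that was lost in 2 of the fits with a library left out. These gave -0.16 without control replicate 3 (adjusted p = 0.0516), and -0.14 when SUDS3 knockdown replicate 2 was left out (adjusted p = 0.114). With the PHF12 siRNA it did not pass (0.08, adjusted p = 0.346).

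MBD3, the alternative to MBD2 in the complex, had the largest change of any member against control. It had 79.5, 80.6 and 70.4 CPM in SUDS3 knockdown libraries, 127, 119 and 118 CPM in PHF12 knockdown libraries and 125, 120.1 and 121 CPM in control libraries. The SUDS3 knockdown libraries were far below the other 6, and PHF12 knockdown and control libraries overlapped. MBD3 (ENSG00000071655, chromosome 19, 1573596 to 1592801) averaged 76.8 ± 5.59 CPM in the SUDS3 knockdown and 122 ± 2.50 CPM in controls (SD, n = 3 each; log2 fold change -0.67, SE 0.05, adjusted p = 4.44e-14 in edgeR), and its log2 fold change was -0.69 to -0.61 in all 21 other settings. Of the 6702 well-expressed genes, 143, or 2.13%, passed with a fall at least as large. Of its longest coding transcript, 915 of 5518 bases are shared with other annotated genes, chiefly AC005943.1 on the same strand, which has 0 counts. With the PHF12 siRNA the log2 fold change of MBD3 was -0.00 (95% interval -0.09 to 0.09, adjusted p = 0.958).

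GATAD2A and GATAD2B, the paralogs that tie the MBD protein to the motor, had fold changes of opposite sign in both knockdowns, although that of GATAD2A passed with the PHF12 siRNA and not with the SUDS3 siRNA. GATAD2A had 169, 163 and 155 CPM in SUDS3 knockdown libraries, 138, 132 and 147 CPM in PHF12 knockdown libraries and 157, 160.3 and 148 CPM in control libraries. The PHF12 knockdown libraries were the lowest, although the highest of them and the lowest control differed by less than 1 CPM. GATAD2A (ENSG00000167491, chromosome 19, 19385826 to 19508931) fell with the PHF12 siRNA (log2 fold change -0.16, SE 0.04, adjusted p = 0.00414 in edgeR), a call that ended without PHF12 knockdown replicate 2 (-0.12, adjusted p = 0.0515). With the SUDS3 siRNA the log2 fold change was 0.07 (95% interval -0.02 to 0.15, adjusted p = 0.244).

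GATAD2B had 66.2, 64.8 and 72.6 CPM in SUDS3 knockdown libraries, 107, 110.0 and 113 CPM in PHF12 knockdown libraries and 85.9, 84.2 and 84.6 CPM in control libraries. No 2 groups overlapped, with the SUDS3 knockdown lowest and the PHF12 knockdown highest. GATAD2B (ENSG00000143614, chromosome 1, 153789030 to 153923360) averaged 67.9 ± 4.13 CPM in the SUDS3 knockdown, 110.0 ± 3.18 CPM in the PHF12 knockdown and 84.9 ± 0.923 CPM in controls (SD, n = 3 each). It fell with the SUDS3 siRNA (log2 fold change -0.32, SE 0.05, adjusted p = 8.11e-07 in edgeR) and rose with the PHF12 siRNA (log2 fold change 0.37, SE 0.05, adjusted p = 3.9e-08), and both calls held in all 21 other settings. Among the 6702 well-expressed genes, 2.78% passed with a rise at least as large with the PHF12 siRNA, and 9.25% with a fall at least as large with the SUDS3 siRNA.

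RBBP7, the histone-binding subunit, showed the same order of groups at a higher level. It had 517, 518 and 544 CPM in SUDS3 knockdown libraries, 707, 712 and 689.6 CPM in PHF12 knockdown libraries and 589.7, 587 and 587 CPM in control libraries. Again no 2 groups overlapped, and the controls lay within 3 CPM of each other. RBBP7 (ENSG00000102054, chromosome X, 16839283 to 16870414) fell with the SUDS3 siRNA (log2 fold change -0.16, SE 0.03, adjusted p = 1.17e-05 in edgeR) and rose with the PHF12 siRNA (log2 fold change 0.26, SE 0.03, adjusted p = 1.28e-09). Both calls of RBBP7 held under each of the 21 alternatives. It shares 179 exon bases with TXLNG on the opposite strand, and whether the counting used strand is not stated.

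**Figure D2:**
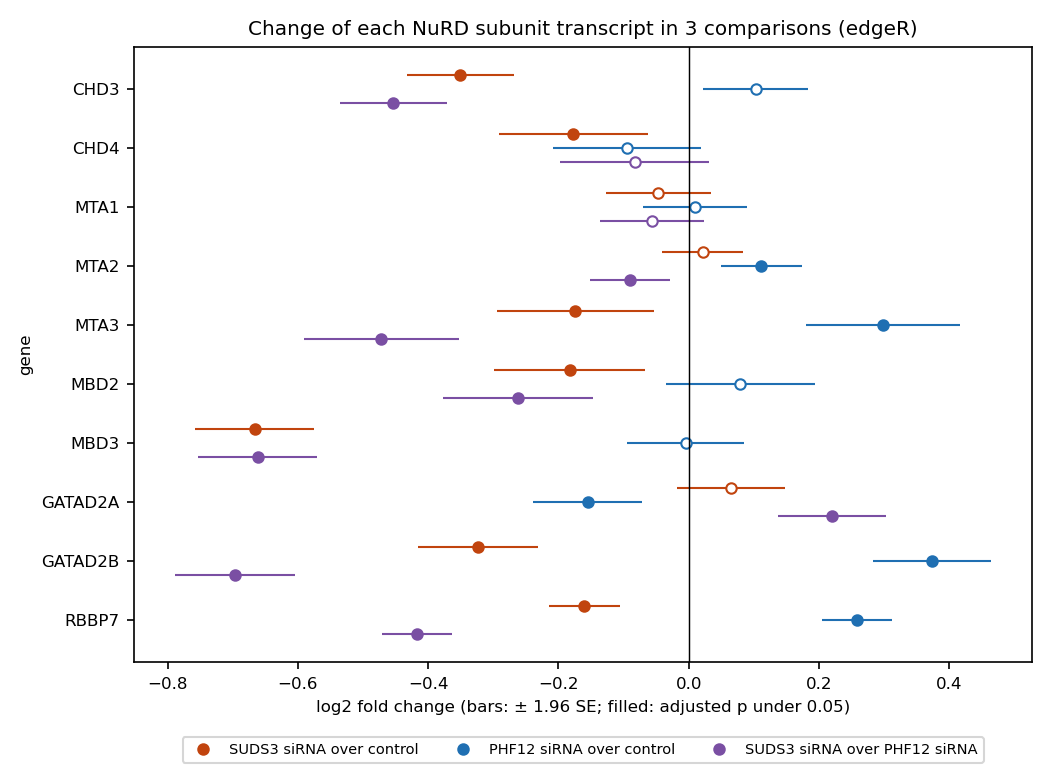
Log2 fold change of each NuRD subunit transcript (horizontal axis) for the SUDS3 siRNA over control, the PHF12 siRNA over control and the SUDS3 siRNA over the PHF12 siRNA; bars are 95% intervals of the edgeR fit and filled points passed an adjusted p under 0.05. MBD3 at -0.67 lies farthest from 0 against control, and GATAD2B at -0.70 between the knockdowns.

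The knockdowns were also compared with each other directly, within the same fit of all 9 libraries. The control libraries entered its filter, scaling and estimate of spread, but not the group means compared. Of the 10 members 7 were lower with the SUDS3 siRNA than with the PHF12 siRNA, 1 was higher and 2 did not pass, where 21.1% of all tested genes were lower and 22.7% higher, and 29.8% and 36.9% of the well-expressed ones. GATAD2B differed most (log2 fold change -0.70, SE 0.05, edgeR adjusted p = 5.01e-15): of the 6702 well-expressed genes, 134 passed with a difference at least as large in that direction. MBD3 (-0.66), MTA3 (-0.47), CHD3 (-0.45), RBBP7 (-0.42) and MBD2 (-0.26) were lower as well, with edgeR adjusted p of at most 0.000327, that of MBD2. MTA2 was slightly lower (-0.09, adjusted p = 0.0185), a call that ended when replicate 1 of the PHF12 knockdown was left out, at -0.09 (adjusted p = 0.0506), or replicate 1 of the SUDS3 knockdown, at -0.08 (adjusted p = 0.0841). Unscaled library totals ended it as well, at -0.07 (adjusted p = 0.0736). GATAD2A was the one member higher with the SUDS3 siRNA (0.22, edgeR adjusted p = 4.2e-05). CHD4 (-0.08, 95% interval -0.20 to 0.03) and MTA1 (-0.06, -0.14 to 0.02) did not pass.

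Since paralogs replace each other in the complex, their ratio within a library was computed, a value that does not depend on how libraries are scaled. Ratios are given from the counts, and their log2 differences and tests come from the deposited TPM, in which the length of each gene cancels between libraries. With 3 libraries per group the exact two-sided permutation test cannot give a p below 0.1; 18 ratio comparisons were made, and a raw p of 0.1 became 0.15 when adjusted over them. The ratio of GATAD2A to GATAD2B counts was 2.55, 2.51 and 2.13 in SUDS3 knockdown libraries, 1.29, 1.20 and 1.30 in PHF12 knockdown libraries and 1.83, 1.90 and 1.74 in control libraries. This balance therefore leaned further to GATAD2A in the SUDS3 knockdown (difference of log2 ratios 0.39, exact permutation p = 0.1) and towards GATAD2B in the PHF12 knockdown (-0.53, exact permutation p = 0.1), with no overlap between any 2 groups. The ratio of MBD2 to MBD3 counts was 0.519, 0.459 and 0.543 in SUDS3 knockdown libraries, 0.363, 0.395 and 0.391 in PHF12 knockdown libraries and 0.352, 0.359 and 0.373 in control libraries. The SUDS3 knockdown libraries lay above all controls (0.49, exact permutation p = 0.1), while PHF12 knockdown and control libraries overlapped; MBD2 itself was lower in the SUDS3 knockdown, and MBD3 lower still. The ratio of RBBP7 to RBBP4 counts was 1.04, 1.03 and 1.09 in SUDS3 knockdown libraries, 1.41, 1.37 and 1.32 in PHF12 knockdown libraries and 1.17, 1.14 and 1.10 in control libraries, again with no overlap between groups (each exact permutation p = 0.1).

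For the motors and scaffolds the SUDS3 knockdown libraries overlapped the controls. The mean ratio of CHD3 to CHD4 counts was 2.58 in the SUDS3 knockdown, 3.32 in the PHF12 knockdown and 2.90 in control; the exact permutation p was 0.2 for SUDS3 knockdown against control and 0.1 for PHF12 knockdown against control, whose libraries did not overlap. MTA3 to MTA2 averaged 0.191, 0.249 and 0.219 in the same order of groups, with an exact permutation p of 0.3 for SUDS3 knockdown against control and 0.1, without overlap, for PHF12 knockdown against control. MTA1 to MTA2 averaged 0.557, 0.544 and 0.584, and all 3 groups overlapped. The ratio of counts compares groups, but does not say which paralog is more abundant, since the genes differ in length.

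**Figure D3:**
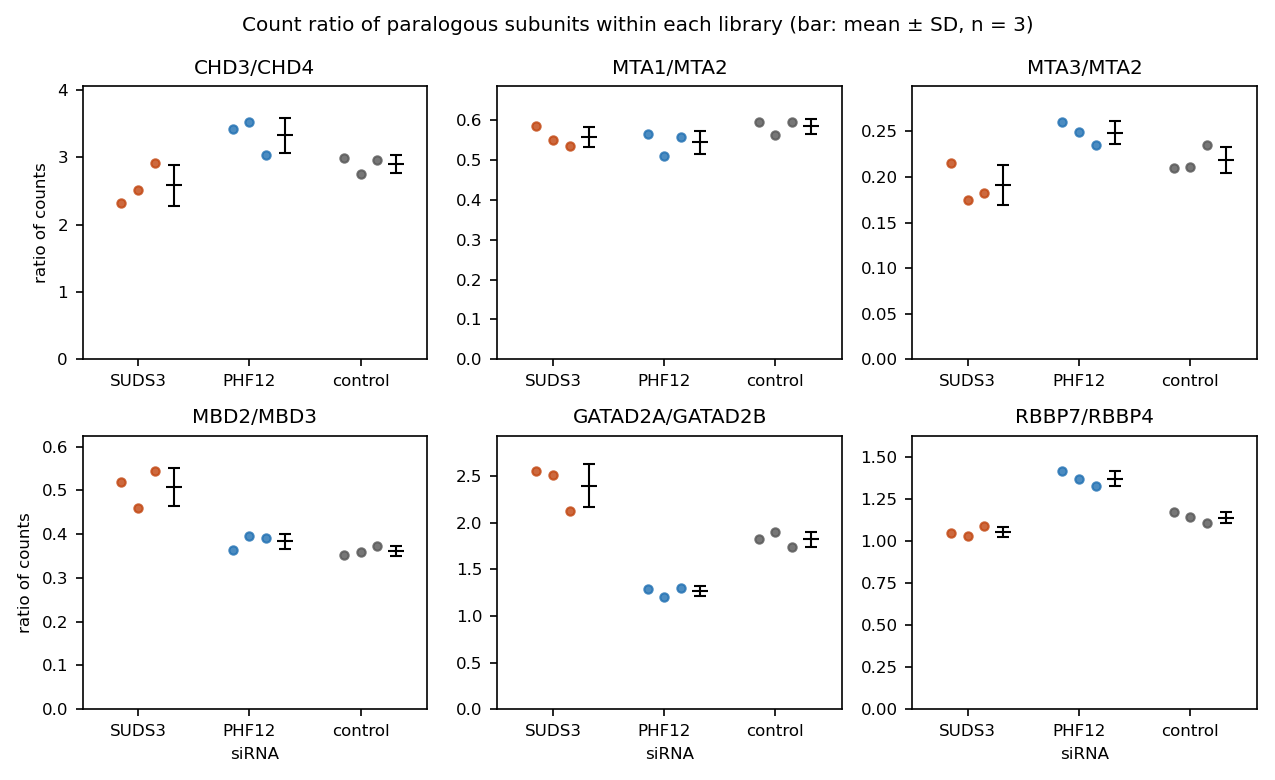
Ratio of the counts of 6 pairs of paralogous subunits within each library (vertical axes, from 0), with SUDS3 knockdown, PHF12 knockdown and control from left to right; points are libraries and black bars the mean ± SD of 3. The ratio of GATAD2A to GATAD2B is 2.13 to 2.55 in the SUDS3 knockdown, 1.20 to 1.30 in the PHF12 knockdown and 1.74 to 1.90 in control.

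Levels can be compared between genes only per length. Per kilobase of the longest coding transcript that is not shared with another gene, RBBP7 was the most abundant member, at 244 ± 7.06 CPM per kb in the SUDS3 knockdown, 326 ± 5.49 in the PHF12 knockdown and 273 ± 0.724 in control (SD, n = 3 each). In controls MTA2 followed at 79.4 ± 0.796 CPM per kb. CHD4 (61.7 to 64.9) and MTA1 (59.0 to 62.6) came next and overlapped, as did GATAD2A (25.5 to 27.7) and MBD3 (26.1 to 27.1). Below them were CHD3 (20.1 to 21.6), GATAD2B (11.3 to 11.5), MTA3 (8.81 to 9.69) and MBD2 (8.30 to 8.71), none of which overlapped its neighbours. In the SUDS3 knockdown MBD3 (15.3 to 17.5 CPM per kb) and CHD3 (15.3 to 17.0) overlapped on this scale. The scale depends on the length used. Over all annotated exon bases CHD4 was last, at 4.14 CPM per kb in control, in place of 63.6 ± 1.74. MBD3 and CHD3 were then already level in control, at 15.6 and 15.6 CPM per kb, and MBD3 was the lower in the SUDS3 knockdown, at 9.79 against 12.3 for CHD3. GATAD2A (21.2 in control) then came before MTA1 (20.4), and MBD2 (7.59) before MTA3 (5.02), so the order of these genes and of CHD4 is uncertain. By either length RBBP7 was first and MTA2 second, and the within-gene comparisons above do not depend on length.

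**Figure D4:**
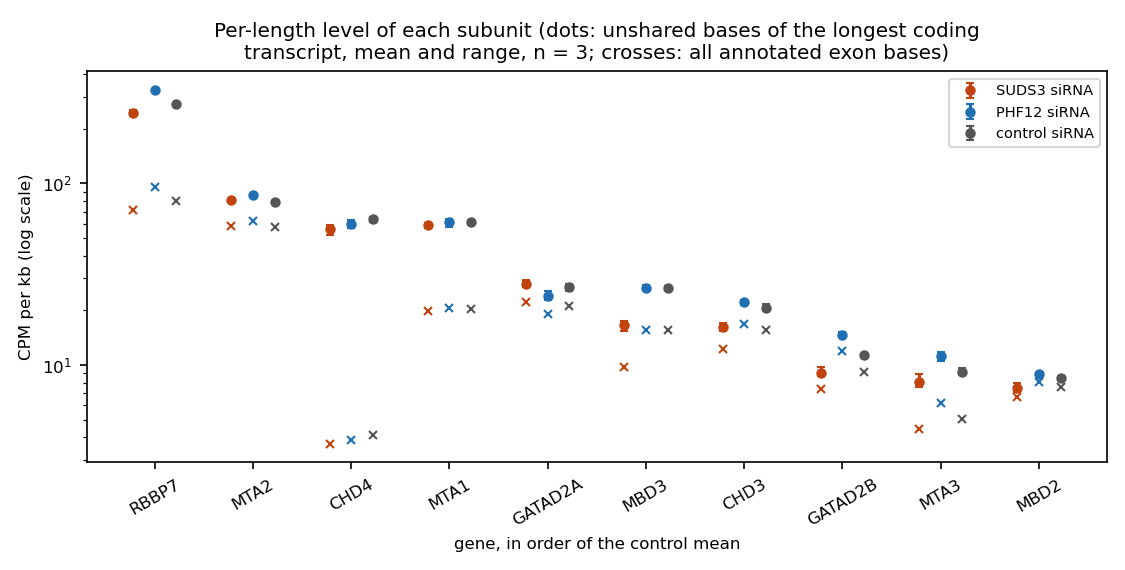
Level of each NuRD subunit in CPM per kilobase (vertical log axis), in order of the control mean, for SUDS3 knockdown, PHF12 knockdown and control from left to right within each gene; dots with bars are the mean and range of 3 libraries per unshared base of the longest coding transcript, and crosses use all annotated exon bases. RBBP7 is highest by either length, and CHD4 is the gene whose level differs most between them.

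Among the 6 other NuRD subunits looked at (HDAC1, HDAC2, RBBP4, CDK2AP1, CDK2AP2 and CHD5), 1 rose and 1 fell with the SUDS3 siRNA, and 2 rose and 0 fell with the PHF12 siRNA (0 at an unadjusted p under 0.05 in edgeR). For scale, 19.6% of all tested genes rose and 19.2% fell with the SUDS3 siRNA, and 14.8% and 17.1% with the PHF12 siRNA. The counts with the SUDS3 siRNA were near those shares. The deacetylase HDAC1 had 295, 293 and 298 CPM in SUDS3 knockdown libraries, 420.5, 408 and 396 CPM in PHF12 knockdown libraries and 276, 279 and 274 CPM in control libraries. It was highest in the PHF12 knockdown, with no overlap between groups (log2 fold change 0.56 with the PHF12 siRNA, adjusted p = 2.08e-17, and 0.10 with the SUDS3 siRNA, adjusted p = 0.011 in edgeR). HDAC1 has 2 and RBBP4 has 6 annotated pseudogenes that may share reads, and the members have none by name. HDAC2 (-0.02 and -0.05 with the SUDS3 and the PHF12 siRNA), RBBP4 (-0.05 and -0.01) and CDK2AP1 (0.10 and 0.10) did not pass in either, so no change of RBBP4 was detected beside that of its paralog RBBP7.

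Of 22 DNA- and histone-binding factors known to recruit or bind NuRD, 21 were tested, and 3 rose, 9 fell and 9 did not pass with the SUDS3 siRNA, with a median log2 fold change of -0.13, where 19.6% of all tested genes rose and 19.2% fell. With the PHF12 siRNA 4 rose, 4 fell and 13 did not pass, with a median of -0.02, near the 14.8% and 17.1% of all tested genes that rose and fell. The largest change was that of BCL11B, a zinc finger repressor of T cells and neurons, at 0.734, 0.667 and 0.490 CPM in SUDS3 knockdown libraries, 1.25, 1.11 and 1.85 CPM in PHF12 knockdown libraries and 2.65, 2.77 and 2.32 CPM in control libraries. It fell in both (log2 fold change -2.03, adjusted p = 1.74e-06, and -0.88, adjusted p = 0.0163 in edgeR), at a low level of 20 to 128 counts per library. SALL4 (-0.72, adjusted p = 0.025 in edgeR), a stem cell zinc finger protein that binds NuRD, and ZNF532 (-0.52, adjusted p = 0.000102) fell with the SUDS3 siRNA. The level of SALL4 was low too, with 80, 44 and 76 counts in SUDS3 knockdown libraries and 116, 96 and 108 in control libraries.

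Other families gave different counts. Of 11 CHD and MBD genes outside NuRD, 5 rose, 3 fell and 3 did not pass with the SUDS3 siRNA (median 0.10), and 4 rose, 1 fell and 6 did not pass with the PHF12 siRNA (median 0.11). Of 16 SIN3 complex genes, 11 rose, 4 fell and 1 did not pass with the SUDS3 siRNA (median 0.31), and 6 rose, 4 fell and 6 did not pass with the PHF12 siRNA (median 0.09). Those SIN3 counts include both siRNA targets, and beyond them the changes of at least 0.5 on the log2 scale were a fall of the SUDS3 paralog BRMS1L (-1.10, edgeR adjusted p = 9.92e-18) and a rise of ING2 (0.55, adjusted p = 4.21e-06), both with the SUDS3 siRNA. Of 10 genes of CoREST, another complex with HDAC1 and HDAC2, 5 rose, 1 fell and 4 did not pass with the SUDS3 siRNA (median 0.15), and 1 rose, 1 fell and 8 did not pass with the PHF12 siRNA (median 0.01); the fall with the PHF12 siRNA was that of the scaffold RCOR1 (-0.62, edgeR adjusted p = 2.23e-11). Beside these counts, 19.6% of all tested genes rose and 19.2% fell with the SUDS3 siRNA, and 14.8% and 17.1% with the PHF12 siRNA. Of the well-expressed genes, 35.0% rose and 26.4% fell with the SUDS3 siRNA. With that siRNA 7 of 10 NuRD members fell, against 4 of 16 SIN3 genes and 1 of 10 CoREST genes. RBBP7, among the NuRD falls, also belongs to SIN3 complexes but was counted with NuRD alone. The shared subunits RBBP4, HDAC1 and HDAC2 were not in the SIN3 list either. The SIN3 falls, which include SUDS3 itself, were near the share of well-expressed genes that fell. The difference between lists was not tested.

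**Figure D5:**
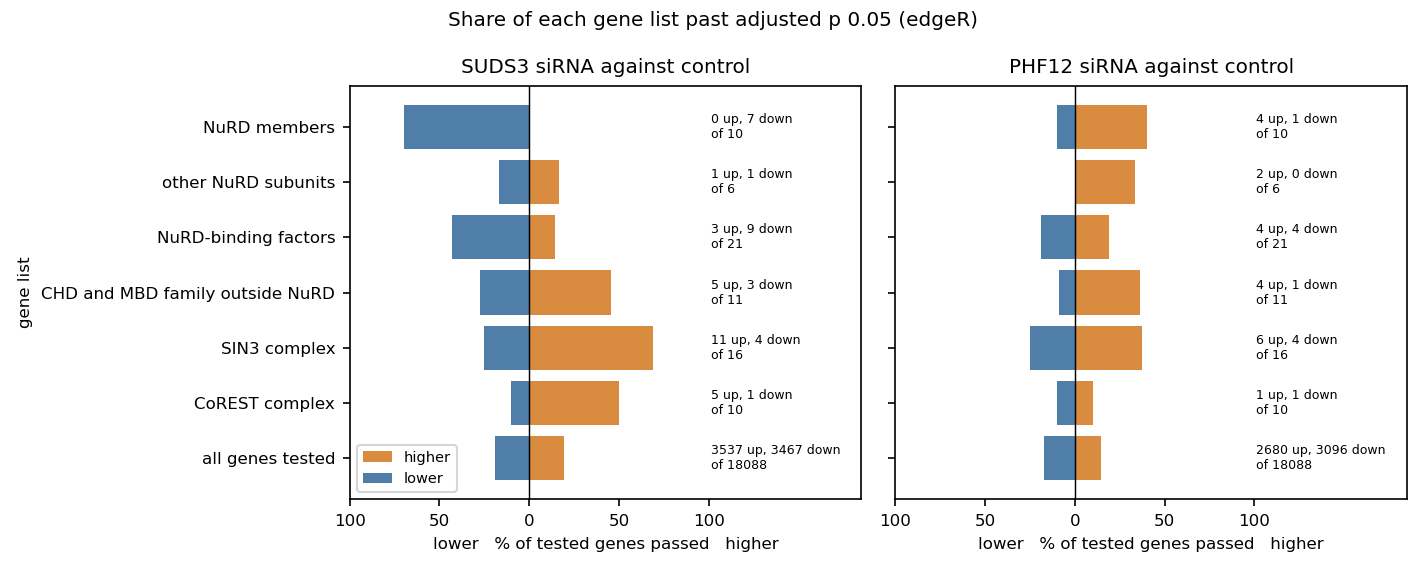
Percent of the tested genes of each list that passed an adjusted p under 0.05 in edgeR, with rises to the right and falls to the left of 0, for the SUDS3 siRNA (left panel) and the PHF12 siRNA (right panel) against control; the text beside each bar gives the counts. With the SUDS3 siRNA 7 of 10 NuRD members fell and 11 of 16 SIN3 genes rose. The bottom bar shows all 18088 genes tested, of which 19.6% rose and 19.2% fell with that siRNA.

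Last, other genes with the same pattern over the 9 libraries were looked up for the members with the largest F statistic over the 3 groups in the edgeR fit, MBD3, RBBP7 and GATAD2B, among 11729 protein-coding genes. The measure was Pearson's r of log2 CPM, which here mostly reflects the 3 group means. MBD3 was most like RNF144A (r = 0.993), SRD5A3 (0.991) and REEP5 (0.990), of which RNF144A and SRD5A3 had log2 fold changes of -0.93 and -0.91 with the SUDS3 siRNA and REEP5 -0.19. RBBP7 was most like RAB39B (0.996), TSC22D3 (0.995) and RPL26 (0.993), and GATAD2B most like EIF3D (0.993), EXOSC10 (0.992) and HOXD10 (0.992). Such likeness was common: 272 genes had an r over 0.95 with MBD3, 229 with RBBP7 and 244 with GATAD2B.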

How the data were processed

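RNA of 9 libraries was measured, in 3 groups of 3 taken from the labels. Per the submitters' processing notes, the tools were HTSeq, HISAT2 2.1.0 and Trimmomatic 0.36, on build GRCh38; no source used here gives the strand setting. Counts per gene and TPM were deposited by the authors, 1 table each. Of the counts above 0, 96.1% are multiples of 4, so 1 fragment may be worth 4 counts. All 58735 gene identifiers matched GENCODE 29.

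The deposited counts were fitted with edgeR 4.0.16 (R 4.3.3, limma 3.58.1): a minimum count of 10 in filterByExpr, TMM scaling, a quasi-likelihood model with 1 mean per group, and Benjamini-Hochberg adjustment over 18088 genes per comparison at 0.05. SE come from the F statistic, and 95% intervals are taken as normal from that SE. No label states separate cultures for the replicates: p-values measure the spread between these libraries, which may be technical. Alternatives were other scalings and filters, DESeq2 1.42.0, limma on log2 TPM, counts divided by 4, a replicate block, the 2 compared groups alone and each library left out. The fit was also run on simulated counts, with the same spread for every gene and without the multiples of 4. That run is therefore no check of the p-values of these data.

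The planned comparison of levels between genes by the deposited TPM was replaced, after the data were seen, by CPM per kilobase, because the lengths the TPM imply are unrelated to annotated lengths. The members, lists and tests were chosen with earlier results of these data known. Besides the members, genes of the lists are named if they are HDAC1, HDAC2, RBBP4 or CDK2AP1, or passed with a log2 fold change of at least 0.5 in size in either knockdown, or are an siRNA target. NEFM, VIM, NEFL and KRT18 were named after their values were seen. Library totals of 37962926 to 50946148 counts limit the precision of genes with few counts; the members have 1560 to 36036 counts per library.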

Additional observations from a re-analysis of the deposited data

How the results depend on the processing

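Among the members' log2 fold changes under the alternative settings, 580 kept their direction and their side of the threshold, 20 kept the direction and no longer passed, 15 passed anew and 15 changed sign. All sign changes were in values near 0 that passed nowhere. MBD3 with the PHF12 siRNA (-0.0047) was 0.00667 with relative log expression factors and 0.00669 with DESeq2, 0.0337 with upper-quartile scaling, 0.00141 without a filter, 0.000602 with a minimum count of 40, 0.000838 with counts divided by 4, 0.00341 with only the 2 compared groups, and -0.0378 to 0.0140 with 1 library left out. MTA1 with the PHF12 siRNA ranged from -0.0214 to 0.0519 with 1 library left out, and MTA2 with the SUDS3 siRNA was -0.00672 with upper-quartile scaling. The difference of the log2 ratio of MTA1 to MTA2 between the knockdowns ranged from -0.0110 to 0.0617 with 1 library left out. In limma on log2(TPM + 1) or log2(TPM + 0.1), 0 members fell with the PHF12 siRNA, since GATAD2A no longer passed (adjusted p of 0.0649 to 0.128), and in limma without a filter the rise of MTA3 ended (0.25, adjusted p = 0.053) and the fall of CHD4 with the SUDS3 siRNA ended (-0.16, adjusted p = 0.0923). The cause was not tested. With 1 library left out, 5 to 7 members fell with the SUDS3 siRNA and 0 rose; with the PHF12 siRNA 4 to 5 rose and 0 to 1 fell; between the knockdowns 6 to 7 were lower. The fall of MTA3 with the SUDS3 siRNA also ended with unscaled library totals (-0.15, adjusted p = 0.0511) and in all 3 limma fits. Upper-quartile scaling moved the share of rises among all calls from 46.4% to 56.9% with the PHF12 siRNA and from 51.8% to 41.2% between the knockdowns, where 9 members were then lower, CHD4 and MTA1 included. No scaling moved the median of all genes by more than 0.0667. Deviations from the group means had correlations of -0.016 to 0.030 between same-numbered libraries, and of -0.032 to 0.018 between the others. These values show no strong shared effect, but cannot exclude that the numbers pair libraries. With a replicate block the members' counts stayed at 0 higher and 7 lower with the SUDS3 siRNA, 4 and 1 with the PHF12 siRNA, and 1 and 7 between the knockdowns. The SE against control was widest for the members with the fewest counts, MTA3, MBD2 and CHD4, at 0.058 to 0.061, against 0.027 for RBBP7, and the calls of those 3 members with the SUDS3 siRNA were among those lost with 1 library left out.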

Other observations

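The deposited TPM cannot be compared between genes. A gene's counts divided by its TPM were constant over the libraries once each library's total was allowed for, to within 0.0019 on the log2 scale, and so give the length that was used, up to a factor. Over 12294 genes with at least 1000 counts in all, that length had a Spearman correlation of 0.0055 with the annotated exon length, and of -0.0935 over 574 protein-coding genes with a single annotated transcript, a description across genes. In control replicate 1, MTA1 is listed with 643 TPM from 6360 counts and MTA3 with 4.31 TPM from 2248 counts, although annotated exons of MTA3 cover more bases, 10580 against 6966 for MTA1. GATAD2B, with 3760 counts, is listed with 366 TPM and GATAD2A, with 6872 counts, with 22.8 TPM. Read as levels, these TPM would put GATAD2B above GATAD2A, the opposite of the order per kilobase. Changes of 1 gene between libraries are not touched by this.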
